A study of Mus musculus with 12 samples.

Results

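The histone cluster genes of the mouse were read in polyA-selected RNA of whole cochleae. They are the genes whose symbol starts with Hist1h, Hist2h, Hist3h or Hist4h, and 67 of the 23951 genes in the deposited table were of this kind. RNA-seq was run on 12 libraries in 4 groups of 3, and each library carried its own code. The groups were wild type (WT) at 5 months (E1, E3 and E4) and Dusp1-/- (KO) at 5 months (E7, F18 and F19). The other two were WT at 8 months (F1, F10 and F12) and KO at 8 months (F5, F6 and F27). All mice were on the mixed 129S2/SvPas:C57BL/6 background, and the study asked how loss of Dusp1, a phosphatase that switches off stress-activated kinases, alters the ageing cochlea. Values are FPKM, reads scaled by transcript length and by the size of the library, so levels of different genes are compared per length.

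Histones are the proteins that package DNA. Pairs of H2A, H2B, H3 and H4 form the nucleosome core, and H1 binds the linker DNA between cores. Most cluster genes are replication-dependent: they lack introns, are transcribed mainly while DNA is copied, and their mRNA ends in a short stem-loop in place of a polyA tail. PolyA selection therefore leaves most of this mRNA behind. Some cluster genes also give polyadenylated mRNA, mostly in cells that have stopped dividing, while variant histones encoded outside the clusters, such as H3f3a and H3f3b, use ordinary polyadenylated mRNA at all times.

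The clusters lie on chromosome 13 (Hist1, 53 members), chromosome 3 (Hist2, 10 members), chromosome 11 (Hist3, 3 members) and chromosome 6 (Hist4, 1 member) of mouse build mm9. The stem-loop was searched as a run of 16 bases, with a stem of 6 base pairs around a loop of 4 bases, on the sense strand of the 100 bases after each stop codon. A fixed pattern of the histone stem-loop was tried first, without a check of pairing. Where it was absent, a run was taken that began with GG, had 6 pairs (G-T allowed) and a loop from T to A. The fixed pattern was found in 64 of 67 members (95.5%). Either form was found in 55 of 20498 other coding genes (0.268%), among which was the variant gene H2afx. The stem-loops of the 5 members with the highest levels are shown, with those of Hist1h4i and Hist2h2ac, whose loops differ, and of Hist1h3d, the H3 member with the highest level, because this end, unlike a polyA tail, is not held by polyA selection. Capitals mark the 16 bases of the stem-loop.

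Hist1h2bc (chr13:23776511-23776536, + strand): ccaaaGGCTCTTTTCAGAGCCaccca

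Hist1h1c (chr13:23831376-23831401, + strand): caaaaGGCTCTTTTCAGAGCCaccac

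Hist3h2a (chr11:58768669-58768694, + strand): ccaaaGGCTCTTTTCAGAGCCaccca

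Hist3h2ba (chr11:58762846-58762871, + strand): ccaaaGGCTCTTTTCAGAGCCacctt

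Hist1h3d (chr13:23668108-23668133, + strand): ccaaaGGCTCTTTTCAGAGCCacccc

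Hist2h2ac (chr3:96024336-96024361, - strand): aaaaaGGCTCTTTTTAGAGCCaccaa

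Hist1h4h (chr13:23623322-23623347, + strand): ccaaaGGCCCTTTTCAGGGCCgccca

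Hist1h4i (chr13:22132830-22132855, - strand): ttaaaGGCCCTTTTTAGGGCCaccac

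The same 16 bases, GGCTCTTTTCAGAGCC, stood after 40 of the 64 stop codons, in members of the H1, H2A, H2B and H3 classes. All 13 H4 members with a stem-loop differed from them in the stem: 11 opened with GGCCC and 2 with GGTCC, while the stem of all 51 members of the other classes opened with GGCTC. The stem-loop began 21 to 58 bases after the stop codon, with a median of 30.5. Members and their stop codons were counted by symbol, though some symbols shared a stem-loop position. These were Hist1h2ao with Hist1h2ap, Hist1h4m with Hist1h4n, Hist2h2aa1 with Hist2h2aa2, and Hist2h3c1 with Hist2h3c2. Hist2h2be, Hist1h2an and Hist1h2bq had no match in the 100 bases, which says only that these letters are not in this window.

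The deposited annotation ended most members at the stem-loop. The median member had 52 annotated bases after the stop codon, against 649 in the other coding genes. A polyA signal, AATAAA or ATTAAA, stood in the last 40 bases of the annotated transcript of 5 of 67 members (7.46%) and of 69.2% of the other coding genes. These 5 were all H2B genes: Hist1h2bc, Hist2h2be, Hist1h2be, Hist1h2bp and Hist1h2bq. Bases past the annotated ends were not searched for a signal, so a short model says nothing of signals further on. Hist1h2bc had a short model that ends 55 bases after the stop and a second model of 2 exons with 314 bases after it. The model of Hist2h2be reached 2192 bases past the stop. Hist1h2be had 3 models, of which the longest reached 1906 and the shortest 50 bases past the stop, and its FPKM is a single value over them.

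A few members held nearly all of the signal. Hist1h2bc, an H2B gene, was highest with a mean of 74.1 ± 9.50 FPKM (SD, n = 12 libraries) and ranged from 58.6 to 89.6. Hist1h1c, which encodes the linker histone H1.2, followed with 51.5 ± 10.97 FPKM. Hist3h2a, an H2A gene, had 43.2 ± 5.13 FPKM, and its neighbour Hist3h2ba, an H2B gene, had 17.5 ± 3.67 FPKM. Together these 4 genes held 81.8 to 85.1% of the members' summed FPKM in each library. The models of Hist1h1c, Hist3h2a and Hist3h2ba end 44, 62 and 52 bases past the stop, and no polyA signal stood at their ends. Sequence beyond these ends was not searched for one.

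A second tier of 7 members had means of 1 to 10 FPKM. The H4 genes Hist1h4h and Hist1h4i had 6.67 ± 1.86 and 4.50 ± 1.42 FPKM (SD, n = 12). The H2B genes Hist2h2be and Hist2h2bb had 6.10 ± 0.666 and 4.01 ± 1.12 FPKM. Hist2h2ac, an H2A gene, had 3.43 ± 1.05 FPKM, Hist1h2be had 1.92 ± 0.407 FPKM, and the H4 gene Hist2h4 had a mean of 1.44 FPKM. The ranges of neighbours in this order overlapped, so the order within this tier is that of the means only.

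A further 5 members had means of 0.5 to 1 FPKM, which brought the number at or above the filter of 0.5 FPKM to 16 of 67. The member just inside the filter was Hist1h2bg at 0.529 FPKM and the one just outside was Hist1h3d at 0.499 FPKM. Of the 51 members under the filter, 43 were above 0 in at least 1 library and 8 were listed at 0 in all 12. The 51 members summed to 4.36 to 7.74 FPKM per library.

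**Figure D1:**
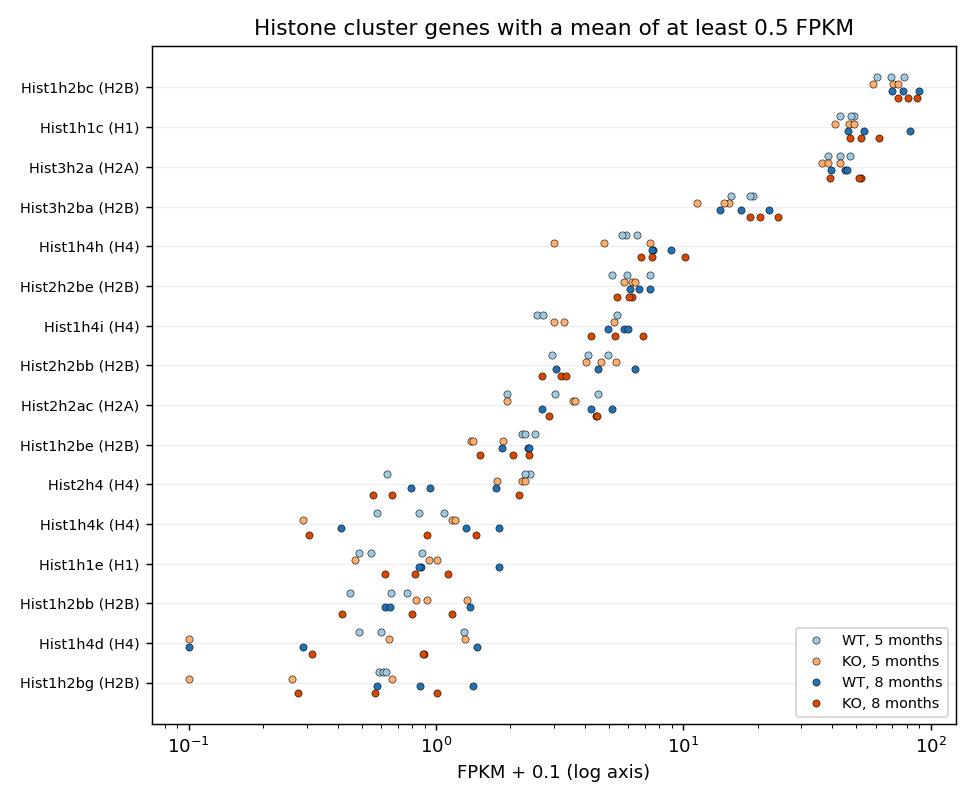
FPKM plus 0.1 on a log axis of the 16 histone cluster genes that passed the filter of 0.5 FPKM, ordered by mean with the protein class in brackets; each point is 1 library, coloured by genotype and age. Hist1h2bc, Hist1h1c, Hist3h2a and Hist3h2ba stand above 10 FPKM in every library, and the points of the 4 groups overlap for most genes.

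The classes were far from equal. The 18 H2B members summed to 87.2 to 131 FPKM per library and made up 47.4% of the members' mean sum. The 6 H1 members summed to 42.3 to 85.2 FPKM and the 18 H2A members to 39.7 to 57.0 FPKM. The 13 H4 members reached 10.8 to 20.2 FPKM. The 12 H3 members summed to only 0.654 to 2.18 FPKM, 0.602% of the members' sum, and none passed the filter. Sequence shared between copies differed between the classes (below), and its part in these sums was not tested.

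Variant genes outside the clusters were measured beside them. The 3 H3 variant genes H3f3a, H3f3b and Cenpa summed to 527 to 711 FPKM, so per length cluster H3 was a small part of the H3 signal in this RNA. H3f3a had 289 ± 39.2 FPKM and H3f3b 299 ± 21.2 FPKM (SD, n = 12). The 6 H2A variant genes summed to 240 to 415 FPKM, several times the cluster H2A genes, with H2afz highest at 153 ± 36.3 FPKM. H1f0, the linker histone typical of differentiated cells, had 68.6 ± 7.73 FPKM, and the 2 H1 variant genes together had 66.5 to 98.7 FPKM. No variant gene of H2B or H4 was on the list.

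Within H1, the signal was that of 1 gene. Hist1h1c ranged from 41.0 FPKM in F19 to 82.0 in F10. Hist1h1e, which encodes H1.4, ranged from 0.371 to 1.70 FPKM with a median of 0.763. Hist1h1b (H1.5) ranged from 0.107 to 0.735 and Hist1h1d (H1.3) from 0.0653 to 0.751 FPKM. Hist1h1a (H1.1) was above 0 in 5 libraries and reached 0.210 FPKM, and the testis gene Hist1h1t was above 0 in 3 libraries and reached 0.159 FPKM. All 6 H1 genes have a stem-loop, and none has a polyA signal at its annotated end, beyond which no signal was searched.

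The Hist3 cluster has few genes and a high level. Its 3 members summed to 47.6 to 75.9 FPKM per library, while the 53 Hist1 members summed to 114 to 201 FPKM and the 10 Hist2 members to 13.6 to 19.8 FPKM. Hist3h2bb-ps, the pseudogene between Hist3h2ba and Hist3h2a, was above 0 in 7 libraries and reached 0.697 FPKM. Hist4h4, the only Hist4 member, was above 0 in 9 libraries and reached 0.655 FPKM.

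Sequence shared between copies limits what a low value means. Reads had 50 bases, and the authors' aligner was set to allow 2 mismatches and 5 multi-hits, places in the genome for a read. Over all 50-base windows of each member's exons, a median of 44.6% were found once in mm9, with a range of 0 to 100%. Windows were counted by exact match, without the mismatches that the aligner allowed. Among the 16 members at or above the filter the share ran from 31.8% to 100%, with a median of 66.2%, and among the 51 below it the median was 34.5%. Of the 8 members listed at 0 in every library, 6 had no window found once: Hist1h2ao, Hist1h2ap, Hist1h2bq, Hist1h4n, Hist2h3c1 and Hist2h3c2. No member above 0 was without such windows. Of the windows of these 6 genes, 33.3% (Hist1h2ap) to 88.9% (Hist2h3c1) were found in 2 to 5 places, within the multi-hits allowed. How reads with several places were treated or shared between copies was not tested. Some symbols were annotated on the same bases. Hist2h3c1 and Hist2h3c2 had the same span, Hist1h2ao and Hist1h2ap the same stem-loop position, and so did Hist1h4n and Hist1h4m. How reads were shared between such symbols was not tested. As none of the windows of the 6 genes named above is found once, their zeros cannot be read as lack of mRNA. Hist1h1a and Hist1h1t, with 100% of windows found once, are low without that limit. The share of windows found in more than 5 places differed between classes. It was 0% in all 6 H1 members and ran from 11.1% (Hist2h3c1) to 61.9% (Hist1h3b) in the H3 members. In the H2A members it ran from 1.24% (Hist1h2aa) to 72.4% (Hist1h2ai). The part of this in the low H3 sum was not tested. Hist1h2bc itself had 52.1% of its windows found once, so its level may hold reads of near-identical copies.

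**Figure D2:**
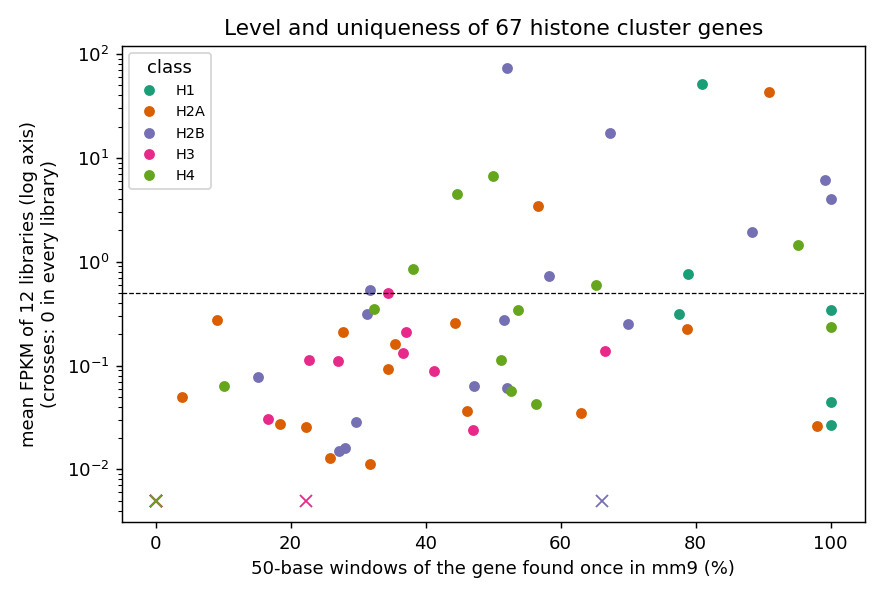
Mean FPKM over 12 libraries on a log axis against the percentage of a gene's 50-base windows found once in mm9, for all 67 members coloured by class; crosses are members at 0 in every library, drawn at an arbitrary low height, and the dashed line is the filter of 0.5 FPKM. Genes with 100% unique windows occur both at 4.01 FPKM (Hist2h2bb) and below 0.1 FPKM (Hist1h1a), and 6 of the crosses lie together at 0%.

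Before the groups are compared, a few facts of the libraries are needed. Dusp1, the targeted gene, did not fall in the libraries labelled KO: it was 61.9, 81.5 and 75.3 FPKM in KO against 60.8, 47.6 and 29.5 in WT at 5 months. At 8 months it was 55.6, 73.7 and 57.1 against 43.0, 38.3 and 38.6 FPKM. A gene-level value does not show which part of the gene was read, and neither labels nor methods name the deleted part, which leaves the labels unchecked by it, and KO below means the libraries labelled KO. All 15 cochlear marker genes were above 0 in all 12 libraries. The 13 neutrophil and precursor markers found, none at 0 in any library, summed to 70.2 to 677 FPKM in WT and 4156 to 22890 in KO at 5 months, and to 686 to 4610 in WT and 893 to 16821 in KO at 8 months. In whole tissue, fewer cells of a type and less RNA per cell cannot be told apart.

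Genes of DNA replication and division varied widely between the libraries, and the histone cluster sum did not follow their order. The 25 S phase genes summed to 397 FPKM in E7 and 351 in F5, against 145 in E3, the lowest library. The 15 mitotic genes summed to 217 FPKM in E7 and 183 in F5, which is 14.3 and 12.1 times the lowest library, E4, at 15.2. E7 and F5 were also the libraries with the highest neutrophil marker sums. The histone cluster sum was 213 FPKM in E7, the ninth of the 12 libraries, and 232 in F5, the fourth. It was highest at 289 FPKM in F10, where the S phase genes summed to 150 and the mitotic genes to 21.1 FPKM. Its whole range, 185 in F19 to 289 in F10, was 1.57-fold, and without F10 the highest library was 252 FPKM.

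The members under the filter, most of them with a stem-loop, did not stand out in these libraries either. They summed to 6.37 FPKM in E7 and 6.46 in F5, within the range of 4.36 to 7.74 over all libraries, and the highest sum was that of E4. The number of them above 0 was highest in E7, with 24 of 51, and ran from 18 to 22 in the other libraries. H2afx, a variant gene known to make both stem-loop and polyA mRNA, was 14.2 ± 0.0525 FPKM in WT and 31.6 ± 11.3 in KO at 5 months (SD, n = 3). The KO values were 44.4 in E7, 23.1 in F18 and 27.2 in F19. At 8 months it was 15.8, 17.4 and 26.1 FPKM in WT and 42.0 (F5), 19.7 and 16.6 in KO, which overlapped.

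**Figure D3:**
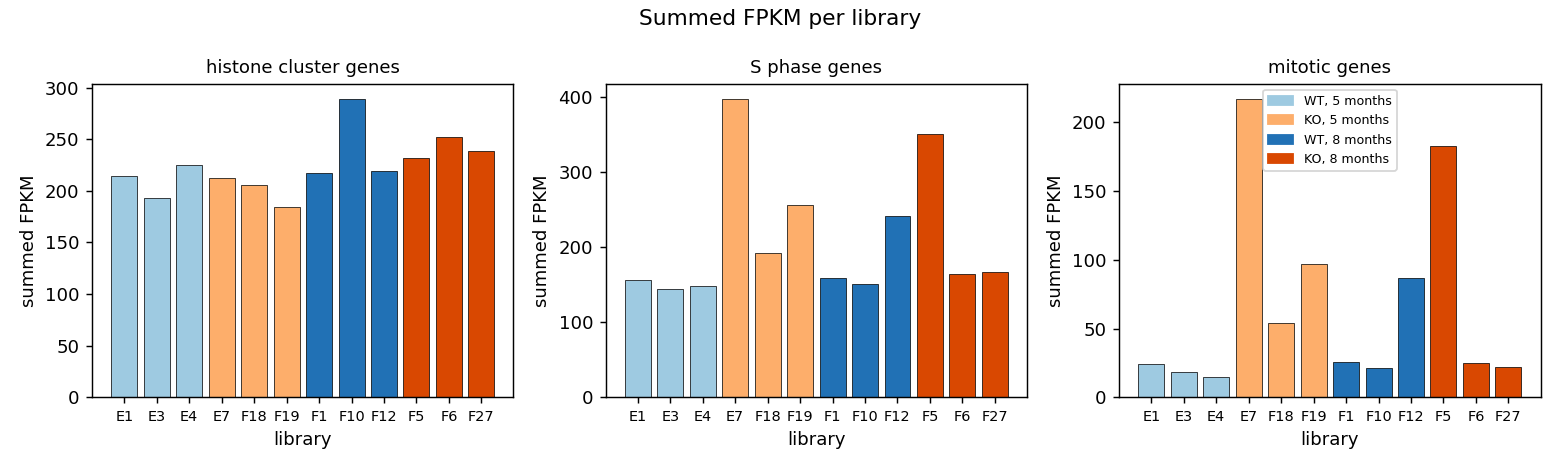
Summed FPKM per library of the 67 histone cluster genes, of 25 S phase genes and of 15 mitotic genes, each on an axis that starts at 0; bars are libraries, coloured by genotype and age. E7 and F5 are the highest bars of the S phase and mitotic panels (397 and 351, and 217 and 183 FPKM), while in the histone panel they stand at 213 and 232 FPKM and F10 is highest at 289.

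The first comparison asks whether loss of Dusp1 changed the histone cluster genes at 5 months. In limma's test across 16269 genes with Benjamini-Hochberg adjustment, 0 of the 16 members tested passed 0.05, against 0.0676% of all genes. At an unadjusted p under 0.05, 1 of 16 was lower in KO and 0 were higher, against 18.2% of all genes in either direction. The median log2 change of the 16 was -0.03, as was that of all genes tested. Of the 16 members, 6 were above 0, against 7205 of the 16269 genes. On the same contrast 25 of 25 S phase genes, 15 of 15 mitotic genes and 8 of 11 variant histone genes were above 0, and 0 of them passed the adjusted threshold. At an unadjusted p under 0.05, 18 S phase, 15 mitotic and 6 variant genes were higher. The neutrophil markers were higher in KO at this age as well (the sums above), as were 11 of 12 B cell and 9 of 9 red cell precursor markers. The part of these markers in the values here was not tested.

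Several of the highest members had estimates near 0 at 5 months, with intervals that reached to both sides of 0. Hist1h2bc was 68.9, 60.6 and 78.0 FPKM in WT and 70.5, 73.8 and 58.6 in KO, and the groups overlapped. Its log2 change was -0.03 ± 0.13 (SE), with a 95% interval from -0.32 to 0.25. Hist1h1c was 48.7, 47.5 and 42.9 FPKM in WT and 46.7, 48.8 and 41.0 in KO, again overlapping. Its log2 change was -0.03 ± 0.18, with an interval from -0.44 to 0.38. Hist3h2a, with the same pattern of overlap, had -0.12 and an interval from -0.39 to 0.15, and Hist2h2be had 0.00 and an interval from -0.27 to 0.27.

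Hist1h2be was the member with the smallest p at this age. It was 2.41, 2.14 and 2.197 FPKM in WT and 1.76, 1.28 and 1.31 in KO at 5 months, with every KO library below every WT library. The log2 change was -0.50 ± 0.16 (SE), with a 95% interval from -0.86 to -0.14. The limma p was 0.0118 and the adjusted p 0.202, so it did not pass. At 8 months it was 2.26, 2.27 and 1.74 FPKM in WT and 1.40, 2.27 and 1.94 in KO, which overlapped, with a log2 change of -0.14 ± 0.16. Averaged over both ages the log2 change was -0.32 ± 0.12, with a limma adjusted p of 0.235. In that average 0 of 16 members passed the adjusted threshold (0.0799% of all genes) and Hist1h2be alone had an unadjusted p under 0.05 (17.4% of all genes).

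Groups that did not overlap at 5 months were seen for 3 of 16 members, against 25.0% of all genes tested. Besides Hist1h2be these were Hist3h2ba, lower in KO, and Hist1h2bb, higher in KO. Hist3h2ba was 19.1, 15.4 and 18.5 FPKM in WT and 15.3, 11.3 and 14.5 in KO. Its log2 change was -0.36 ± 0.17, with an interval from -0.75 to 0.02 and a limma adjusted p of 0.304, and without F18 it was -0.23. Hist1h2bb, an H2B gene of low level, was 0.664, 0.555 and 0.349 FPKM in WT and 0.817, 0.733 and 1.23 in KO, with a limma adjusted p of 0.426.

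The same question was asked at 8 months. In limma's test 0 of 16 members passed the adjusted threshold, against 0.0123% of all genes, and 0 of 16 had an unadjusted p under 0.05, against 5.18%. The WT and KO libraries overlapped for all 16 members tested, while they did not overlap for 10.3% of all genes. Of the 16 members, 5 were above 0, against 7853 of the 16269 genes tested. The median log2 change of the 16 was -0.12, against 0.00 for all genes tested. This median turned to 0.09 without F10 and to 0.05 without F27. Hist1h2bc was 77.3, 89.6 and 69.4 FPKM in WT and 74.0, 88.3 and 80.6 in KO, with a log2 change of 0.04 and a 95% interval from -0.24 to 0.33. Hist1h1c was 46.1, 82.0 and 53.6 FPKM in WT and 61.5, 52.2 and 47.0 in KO, where F10 is the high value, with a log2 change of -0.14 and an interval from -0.55 to 0.27. Without F10 it was 0.098.

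Hist2h2bb differed by the most at 8 months in the fit of all 12 libraries, an order that rests on F10. It was 2.97, 6.27 and 4.42 FPKM in WT and 3.10, 2.59 and 3.25 in KO, so 1 KO library lay below the WT range and the other two lay near its low end. The log2 change was -0.49 ± 0.24 (SE), with an interval from -1.03 to 0.05 and a limma adjusted p of 0.962. It was -0.25 without F10 and -0.73 without F1. The intervals of the H4 genes Hist1h4h and Hist1h4i were wide at both ages: at 8 months they ran from -0.56 to 0.57 and from -0.66 to 0.58. For these genes a change of about 0.5 on the log2 scale in either direction was not detectable with 3 libraries a group.

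Whether the KO to WT difference itself changed with age was tested as an interaction. In limma's test 0 of 16 members passed the adjusted threshold (0.00615% of all genes), and 1 of 16 had an unadjusted p under 0.05 (4.67% of all genes). That member was Hist3h2ba, lower in KO at 5 months and, at 8 months, 18.5, 20.4 and 24.1 FPKM in KO against 13.9, 22.1 and 17.1 in WT, which overlapped. The difference between the ages was 0.62 ± 0.25 on the log2 scale, with an interval from 0.07 to 1.17, a limma p of 0.0302 and an adjusted p of 0.876.

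**Figure D4:**
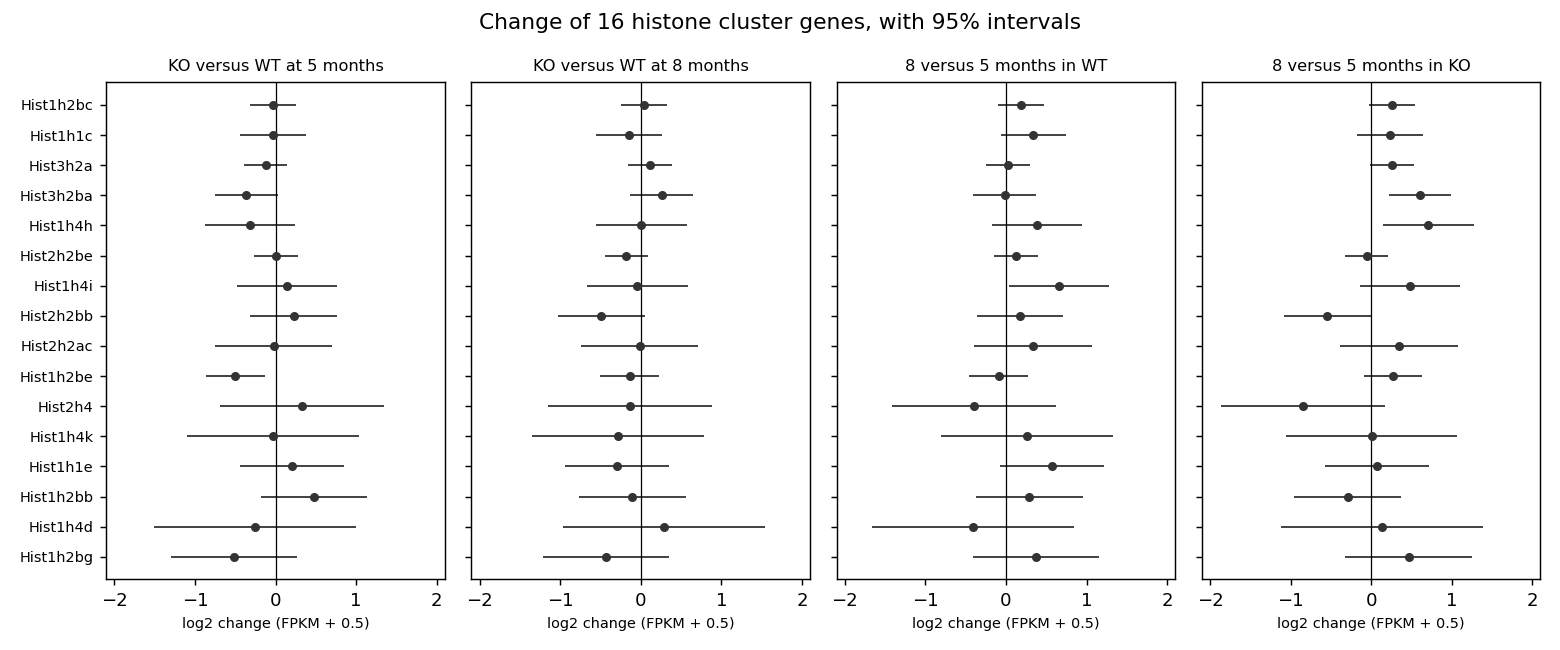
Log2 change on the FPKM + 0.5 scale of the 16 members tested, ordered by level, in 4 comparisons; points are limma estimates and bars are 95% intervals that are not adjusted for the number of genes. The intervals of most genes cross 0; the exceptions are Hist1h2be in KO against WT at 5 months, Hist1h4i with age in WT, and Hist3h2ba, Hist1h4h and Hist2h2bb with age in KO.

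The last comparisons set 8 against 5 months within each genotype. In WT, 12 of 16 members were higher at 8 months, against 8742 of the 16269 genes tested. The median log2 change of the 16 was 0.22, against 0.02 for all genes tested. The median of the members was 0.06 without F10, 0.10 without E3 and 0.42 without F1. F10 was the highest of the 12 libraries for 8 of the 16 members, while it was the highest for 9.47% of all genes tested. In limma's test 0 of 16 passed the adjusted threshold (0.0123% of all genes) and 1 of 16 had an unadjusted p under 0.05 (7.84% of all genes). This was Hist1h4i, at 2.47, 2.60 and 5.27 FPKM at 5 months and 4.86, 5.65 and 5.85 at 8 months. The ages overlapped through E4, and the log2 change was 0.66 ± 0.28 (SE), with an adjusted p of 0.630 in limma. The ages did not overlap for 1 of 16 members, Hist1h4h, and for 19.2% of all genes.

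In KO, 12 of 16 members were again higher at 8 months, against 8660 of the 16269 genes tested. The median log2 change of the 16 was 0.24, against 0.01 for all genes tested. In limma's test 0 of 16 members passed the adjusted threshold, as did 0% of all genes. An unadjusted p under 0.05 was reached by 3 of 16 members, of which 2 were higher, against 12.6% of all genes. Every library at 8 months was above every library at 5 months for Hist3h2ba, with a log2 change of 0.60 ± 0.17 (SE), a 95% interval from 0.22 to 0.99, a limma p of 0.00595 and an adjusted p of 0.302. Its neighbour Hist3h2a was 42.7, 36.3 and 38.5 FPKM at 5 months and 39.0, 51.9 and 51.1 at 8 months, which overlapped, and its log2 change was 0.26, with an interval from -0.01 to 0.53.

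The other members past an unadjusted p under 0.05 in KO went in both directions. Hist1h4h was 4.67, 7.20 and 2.89 FPKM at 5 months and 6.61, 10.1 and 7.35 at 8 months, which overlapped, with a log2 change of 0.71 ± 0.25 and a limma adjusted p of 0.343. Without F19 its log2 change was 0.41. Hist2h2bb was 4.53, 5.26 and 3.95 FPKM at 5 months and 3.10, 2.59 and 3.25 at 8 months, with every library at 8 months below every library at 5 months. Its log2 change was -0.54 ± 0.24, with a limma adjusted p of 0.393. Groups that did not overlap were seen for 3 of 16 members (Hist1h2bc, Hist3h2ba and Hist2h2bb), against 15.7% of all genes. The neutrophil marker sum in KO was 4156 to 22890 FPKM at 5 months and 893 to 16821 at 8 months, which overlapped. In limma's test 0 of the 13 markers had an unadjusted p under 0.05 with age in KO, and 0 of 13 were above 0. Of 12 B cell and precursor markers 0 were above 0 and 6 were lower at that p, against 12.6% of all genes. Of the 9 red cell precursor markers tested, 0 were above 0 and 0 reached that p. The part of these markers in the values above was not tested.

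**Figure D5:**
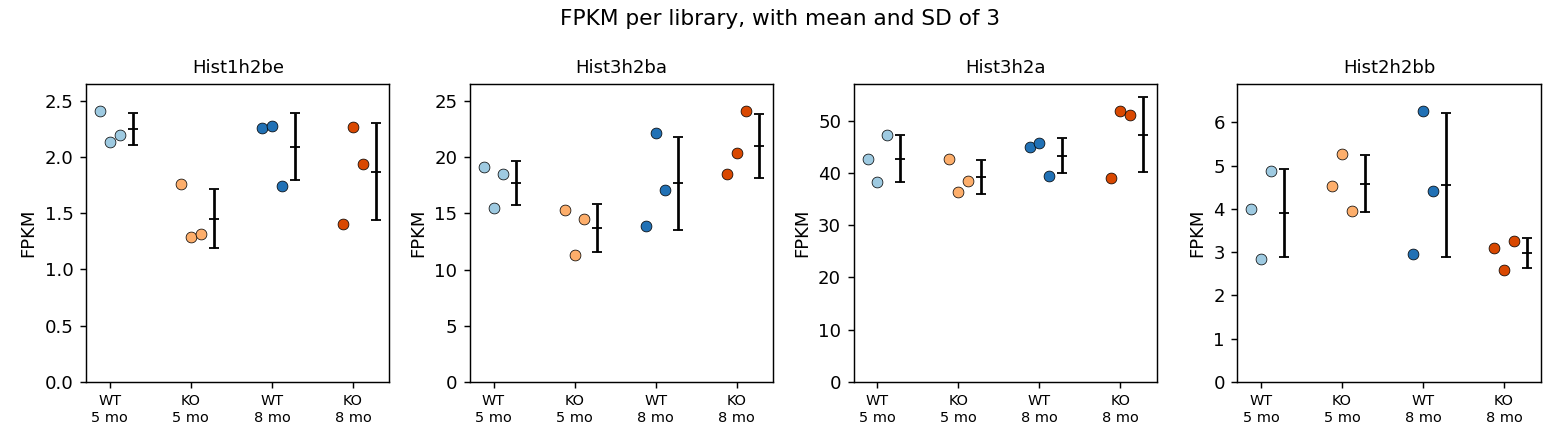
FPKM per library (points) with the mean and SD of 3 (bars) for Hist1h2be, Hist3h2ba, Hist3h2a and Hist2h2bb in the 4 groups, on axes that start at 0. Hist1h2be and Hist3h2ba in KO at 5 months lie below WT at 5 months without overlap, and at 8 months WT and KO overlap for all 4 genes.

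Among the 16 members that passed the filter, the widest ranges over the libraries on the log2(FPKM + 0.5) scale were those of Hist1h4d, Hist1h2bg, Hist1h4k, Hist1h4h and Hist2h4, from 1.90 down to 1.55. Hist1h4d ran from 0 in F19 and F12 to 1.37 FPKM in F10, and Hist1h2bg from 0 in F19 to 1.31 in F12. Hist1h4k ran from 0.189 FPKM in E7 to 1.70 in F10. Hist2h4 was 2.30, 0.531 and 2.19 FPKM in WT at 5 months, so 1 group spanned most of its whole range of 0.455 to 2.30. At the other end Hist2h2be, with the long annotated mRNA and a polyA signal, ran only from 5.06 to 7.25 FPKM.

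The genes that make and end histone mRNA were measured as a fixed list. Of 12 genes for histone mRNA processing and transcription, 11 were tested, and 0 passed the adjusted threshold of limma at 5 or at 8 months. At 5 months 6 of 11 were above 0, against 7205 of all 16269 genes. With an unadjusted p under 0.05, 3 were higher and 1 was lower, against 18.2% of all genes. At 8 months 6 of 11 were above 0, against 7853 of 16269 genes, with 0 at that p (5.18% of all genes). All 12 histone chaperone genes, which carry histones to DNA, were above 0 in KO at 5 months. Of these, 3 had an unadjusted p under 0.05, against 18.2% of all genes, and 0 passed the adjusted threshold. Their median log2 change at 5 months was 0.11, against 0.77 for the S phase genes on the same contrast. At 8 months 7 of the 12 chaperone genes were above 0, with 0 at an unadjusted p under 0.05.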

How the data were processed

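Cochlear RNA was polyA-selected, made into stranded libraries and read as single ends of 50 bases. Per the labels and the study's methods, the authors aligned reads to mm9 with TopHat2 2.0.10 and computed FPKM with Cufflinks 2.2.1. In the deposited FPKM table many values had lost the decimal point. As a first step here each point was placed so that the 3 values of a group average to the authors' group FPKM; 55.30% of values changed, and 29 genes, none a member, could not be placed and were left out, which leaves 23922 genes. Depth is unknown: the files hold no read numbers, and FPKM per library sum to 500363 to 583070.

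The 16269 genes that averaged 0.5 FPKM or more entered 1 limma 3.58.1 fit in R 4.3.3 of the 4 groups on log2(FPKM + 0.5), with a variance trend, 6 contrasts and Benjamini-Hochberg adjustment over all genes. Such log2 changes understate the change of low genes. Levels, tables and figures were made in Python 3.11.15. The placing of decimal points and the limma step were tested on simulated data. The labels give each library a code but do not state that each is a separate animal, so p-values measure only the spread between these libraries, which may be technical.

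Transcript ends were read from the deposited annotation, and sequences from the mm9 (NCBIM37) genome. Members named are the 10 highest, those past a p of 0.05 for genotype, the top of each class, all H1, Hist3 and Hist4 genes and the 5 most variable; genes past that p with age or without overlap, and those at 0, were named after their values were seen. Members and lists were chosen with earlier results of these data known. Alternatives were the pseudocount, filter, scaling, variance trend, library weights, fewer samples, an Xist covariate and leaving out each library. The Xist covariate stood in for sex: it marked libraries with Xist above 5 FPKM in these same data. The authors' comparison statistics, correlation table and gene set reports were not used.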

Additional observations from a re-analysis of the deposited data

How the results depend on the processing

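The count of members past the adjusted threshold was 0 in every contrast run under each alternative. These included a pseudocount of 0.1 or 1 and a filter of a mean above 0 or of at least 1 FPKM. Others were 2 scalings, no variance trend, library weights, the Xist covariate and leaving out any of the 12 libraries. The compared groups alone were fitted too, for the 6 contrasts except the average over ages and the interaction. Leaving out E7 and F5 together was chosen after seeing the data and also left 0. The number of members tested ran from 11 to 59 with the filter. Changes near 0 turned sign. At 5 months, the log2 change of Hist2h2be was -0.036 with quantile normalization and -0.0099 without E7 and F5. That of Hist2h2ac was 0.11 with library weights, that of Hist1h2bc 0.015 with the Xist covariate, and that of Hist1h4i -0.084 without E7 and F5. At 8 months, with the Xist covariate, Hist1h2bc was -0.0046, Hist1h4h -0.040 and Hist2h2ac 0.19, and without E7 and F5 Hist1h2be was 0.0098. The cause of these turns was not tested. Over the fits that left out 1 library, the values at 5 months ran from -0.082 to 0.044 for Hist1h1c, -0.12 to 0.068 for Hist1h2bc, -0.084 to 0.45 for Hist1h4i, -0.29 to 0.24 for Hist2h2ac and -0.11 to 0.13 for Hist2h2be. At 8 months they ran from -0.31 to 0.098 for Hist1h1c, -0.043 to 0.14 for Hist1h2bc, -0.26 to 0.0098 for Hist1h2be, -0.16 to 0.12 for Hist1h4h, -0.21 to 0.12 for Hist1h4i and -0.25 to 0.18 for Hist2h2ac. Hist1h2be at 5 months stayed below 0 in all fits run, with an adjusted p from limma of 0.113 to 0.435. With 51 of 67 members under the filter, most of the clusters could not be tested. No paired analysis was possible because the labels give each library a code of its own and no replicate numbers shared between groups.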
